A study of Ceratotherium simum simum with 6 samples.

Results

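The genes described here encode the factors that start and drive protein synthesis. They were taken from a list of 40 protein-style names as the table of assembled transcripts writes them, of which 38 stood on a locus in the table, among 25906 loci in all. EIF3C and IF6 are not analysed here. Where a name stood on more than 1 locus, the locus with the most counts was used. RNA had been sequenced from granulosa cells, the somatic cells that surround and feed the oocyte in the ovarian follicle, of southern white rhinoceroses (Ceratotherium simum simum). Rhino 2 gave 3 libraries and rhino 1 gave 3 libraries. Both animals were wild type, with in vivo as the treatment and a time before IVM, the in vitro maturation of the oocyte. Each group is 1 animal, and the labels do not say whether its libraries came from separate follicles or collections, so a p-value here speaks of the scatter among 3 libraries of 1 animal, part or all of which may be technical.

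In translation initiation, eIF2 brings the initiator tRNA to the small ribosomal subunit, which carries eIF3, the largest of the initiation factors. The cap of the mRNA is held by eIF4E, which with the scaffold eIF4G and the helicase eIF4A forms eIF4F, and the poly(A)-binding protein holds the other end of the message. eIF5 and eIF5B then take part in start codon choice and in the joining of the large subunit. In elongation, eEF1A delivers each aminoacyl-tRNA and eEF2 moves the ribosome on. Many mRNAs of elongation factors begin with a TOP (terminal oligopyrimidine) motif and are translated under mTOR control, and granulosa cells, which grow and secrete hormones and matrix, depend on this machinery.

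The libraries held 703708 to 1523904 counts in rhino 2 and 672410 to 13288936 counts in rhino 1, the highest being replicate 1. That library stood apart from the other 5 in the strand that held its counts. Models with a gene name took 94.5% of its counts, against 2.31% to 2.61% in the others, whose counts lay on unnamed models of the opposite strand. Of the 38 factor genes, 36 had such an unnamed model, which was joined to the named gene, so reads from a gene and from an antisense partner cannot be told apart. All 9 granulosa markers had counts in every library, and their sum was 9942 to 16466 CPM (counts scaled to a library total of 1e+06) in rhino 2 and 15236 to 25670 CPM in rhino 1. Among them CP19A, the aromatase, had 180 to 260 CPM in rhino 2 and 892 to 3418 CPM in rhino 1, and MIS, the anti-Mullerian hormone, had 292 to 433 CPM in rhino 2 and 78.4 to 90.7 CPM in rhino 1. The theca markers CP17A and INSL3 were at 0 in all 6. CO1A1, which with PGS2 marks stroma, stood at 0 in rhino 2, against 4.67, 2870 and 353 CPM in rhino 1 replicates 1, 2 and 3. The sum of both was 0 in rhino 2 and 4.67 to 3086 CPM in rhino 1. MYH11, a smooth muscle gene, ran from 526 to 900 CPM in rhino 2 and from 112 to 258 CPM in rhino 1. Endothelial markers summed to at most 3.94 CPM in rhino 2 and 5.12 CPM in rhino 1, white blood cell markers to 0 in rhino 2 and at most 35.1 CPM in rhino 1, and oocyte markers to 0 in rhino 2 and at most 3.91 CPM in rhino 1. The theca, white blood cell and oocyte markers and CADH5 of the endothelium have no opposite-strand model, so their 0 outside rhino 1 replicate 1 says nothing about their RNA. The part of these markers in the differences below was not tested.

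The summed counts of the factor genes were a larger share of the libraries of rhino 2. They took 4.21%, 3.92% and 4.0% of the counts in replicates 1, 2 and 3 of rhino 2, against 3.05%, 2.80% and 2.74% in rhino 1. The animals did not overlap. In bulk RNA, fewer cells of a type and less RNA per cell cannot be told apart. EF1A1 alone made up 55.9% ± 0.919 of the factor counts in rhino 2 and 41.7% ± 1.82 in rhino 1 (SD, n = 3 each). Without EF1A1 the sum was 1.78% ± 0.0896 of the library in rhino 2 and 1.67% ± 0.151 in rhino 1, with overlapping libraries. That sum holds EF2 and EIF3D in rhino 1 replicate 1 alone, since in the other 5 libraries their counts lie on named models of the opposite strand, described with EF2. With those models added, the sum without EF1A1 was 2.33%, 2.16% and 2.25% in rhino 2, against 1.85%, 1.98% and 1.87% in rhino 1, and the libraries did not overlap. Of the gap between the animals' mean shares, then 1.42 percentage points, 0.348 lay outside EF1A1, and of the gap of 1.18 without those models, 0.110 did. Without EF1A1, TCTP and EF2, the sum was 1.44% ± 0.0521 in rhino 2 and 1.39% ± 0.0280 in rhino 1 (SD, n = 3 each), with overlapping libraries. The gap in this sum, which holds EIF3D under its own name only, was 0.0433 percentage points.

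**Figure D1:**
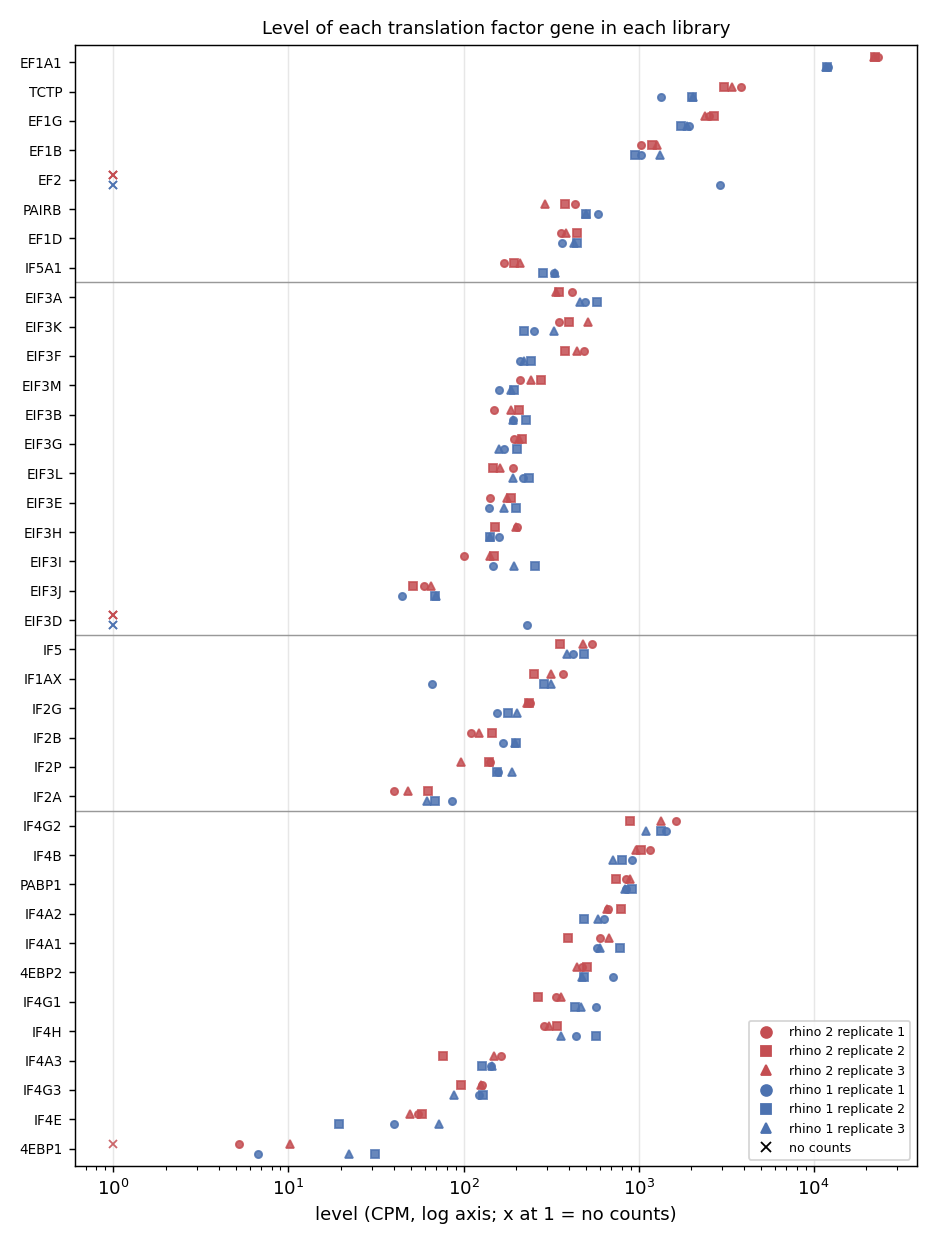
Level of each of the 38 factor genes in CPM on a log axis, 1 point per library, rhino 2 above rhino 1 in each row and genes ordered by mean level within elongation, eIF3, initiator tRNA and joining, and cap, poly(A) and helicase genes. EF1A1 has by far the most CPM, EF2 and EIF3D have counts under their own name in a single library, and 4EBP1 has the lowest CPM.

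On a per-length scale, CPM per kb of exon of the strand model that holds the counts, the order of the genes under their own names was led by EF1A1, TCTP, EF1G, EF1B and EIF3K. EF1A1 stood at 13402 ± 420.0 CPM per kb in rhino 2 and 7573 ± 969 in rhino 1, and TCTP at 2941 ± 326 in rhino 2 and 2018 ± 485 in rhino 1 (SD, n = 3 each). EF1G stood at 1838 ± 110.1 CPM per kb in rhino 2 and 1331 ± 56.9 in rhino 1. Neighbours in this order did not overlap in either animal down to EF1G, which overlapped EF1B in rhino 1. EF2 is counted under its own name in 1 library only, and with its opposite-strand model it stood at 1350.3 ± 22.6 CPM per kb in rhino 2 and 1032 ± 147 in rhino 1, above EIF3K in every library and overlapping EF1B in rhino 1.

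Between the animals, 36 of the 38 genes could be tested, and none passed an adjusted p of 0.05 in edgeR's quasi-likelihood test with Benjamini-Hochberg adjustment over 8532 loci. Over all loci, 47 passed, which is 0.551%. At an unadjusted p under 0.05 there were 10 factor genes, against 12.9% of all loci. DESeq2 called 5 factor genes (EF1A1, TCTP, EF1G, EIF3F and IF5A1) and 8.7% of all loci. With limma-voom there were 3 (EF1A1, TCTP and EIF3F) and 8.93% of all loci. Of the 36 genes, 32 had a mean of 100 CPM or more. No share for equally abundant loci was computed for DESeq2 or limma-voom. In simulated counts with a log2 change of 1, edgeR called 1 of 68 changed genes in the right direction, DESeq2 6 and limma-voom 3. The absence of edgeR calls therefore does not show that levels were equal. At a log2 change of 2, right calls were 17 of 63 with edgeR, 45 with DESeq2 and 29 with limma-voom. At 4 they were 59 of 69, 67 and 41. False calls among the 7670 simulated loci were 4 with edgeR, 51 with DESeq2 and 53 with limma-voom. The share of false calls among all calls was thus above the threshold of 0.05 for DESeq2 and limma-voom in this simulation. Their adjusted p-values here and below may therefore be too low. With the fit limited to loci modelled on both strands, edgeR called EF1A1 and EIF3F, with 1.77% of those loci called. Without a filter on low counts it called EIF3F, EF2 and EIF3D and 2.18% of the loci, and the counts of EF2 and EIF3D under those names lie in 1 library. Values below that are said to be higher or lower are therefore levels in these libraries, and a difference called by another tool is marked as such.

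The libraries of the animals did not overlap for 16 of the 36 genes, or 44.4%, against 24.4% of all loci. Of these, 9 were higher in rhino 2, against 10.4% of all loci, and 7 were lower in rhino 2, against 14% of all loci. Of the 1992 loci with a mean of 100 CPM or more, 39% did not overlap, beside 16 of the 32 factor genes at that level. At that level, 10 factor genes had an unadjusted p under 0.05, against 30.4% of the loci, none passed the adjusted threshold, against 1.91%, and 20 had a log2 fold change above 0, against 54.3%. Over all 36, the log2 fold change was above 0 for 22 genes and below 0 for 14, with 52.8% of all loci above 0. Its median was 0.07 for the factor genes and 0.04 for all loci, and its range over the factor genes was -1.78 to 1.06. Scaling by library sizes alone lowered the median of all loci by 0.14 (log2), and 16 factor genes were then above 0 and 20 below. Relative to the median of all loci, 20 genes were above it with either scaling. The factor genes as a whole stood near the background of equally abundant loci.

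**Figure D2:**
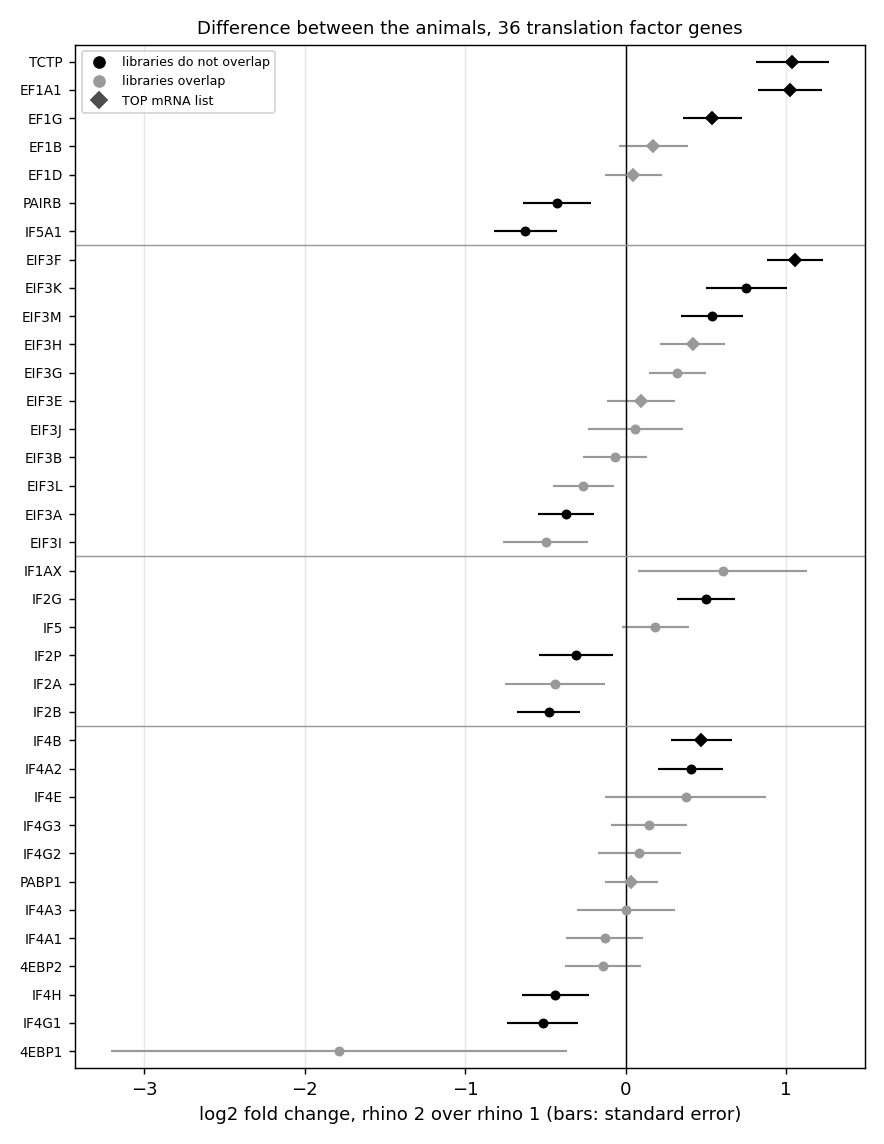
Log2 fold change, rhino 2 over rhino 1, of the 36 genes tested, with bars of 1 standard error, diamonds for genes on the TOP list and black symbols where the libraries of the animals do not overlap. EIF3F, TCTP and EF1A1 stand highest, near 1, and 4EBP1 stands lowest with the widest error.

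Among the elongation genes, 5 of 7 tested had a log2 fold change above 0, and the difference was largest in EF1A1 and TCTP. EF1A1, which encodes the eEF1A that brings aminoacyl-tRNA to the ribosome, had 23414, 22339 and 22076 CPM in rhino 2, against 12085, 11957 and 11711 CPM in rhino 1. The 3 libraries of each animal lay close together and the animals were far apart. The log2 fold change was 1.02 (SE 0.20, adjusted p 0.079 by edgeR, and 1.1e-44 by DESeq2). Over all alternatives with this gene the log2 fold change lay between 0.88 and 1.06, and the adjusted p between 1.1e-44 and 0.443. The gene spans positions 56979359 to 56981533 on the plus strand of scaffold 20 of the deposited assembly, with 7 exons.

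TCTP (gene TPT1) encodes the translationally controlled tumour protein, which binds eEF1A and eEF1B. It had 3836, 3072 and 3423 CPM in rhino 2, against 1338, 2024 and 2047 CPM in rhino 1. All rhino 2 libraries were above all rhino 1 libraries, and rhino 1 replicate 1 was the lowest. The log2 fold change was 1.04 (SE 0.23, adjusted p 0.102 by edgeR, 2.5e-06 by DESeq2), and it was 0.89 without rhino 1 replicate 1. Its named model on scaffold 10, from 58165154 to 58168738, holds 519 exonic bases, against 1171 in the opposite-strand model.

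The eEF1B complex reloads eEF1A with GTP, and its genes EF1B, EF1D and EF1G had log2 fold changes below that of EF1A1. EF1G, the gamma subunit, had 2526, 2684 and 2381 CPM in rhino 2, against 1944, 1744 and 1892 CPM in rhino 1. The animals did not overlap, and the log2 fold change was 0.54 (adjusted p 0.263 by edgeR, 4.7e-04 by DESeq2). EF1B, an exchange subunit, had 1026, 1192 and 1267 CPM in rhino 2, against 1027, 956 and 1325 CPM in rhino 1, and EF1D, the other exchange subunit, had 358 to 445 CPM in rhino 2 and 366 to 445 CPM in rhino 1. Both overlapped, with log2 fold changes of 0.17 and 0.05. The count of EF1A1 per count of EF1B was 19.7 ± 2.81 in rhino 2 and 11.04 ± 1.94 in rhino 1 (SD, n = 3 each), without overlap. EF1G over EF1B was 2.20 ± 0.294 in rhino 2 and 1.72 ± 0.251 in rhino 1, with overlap, and EF1G over EF1D did not overlap. These ratios and the others below were chosen after the values were seen and are not tested.

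IF5A1 and PAIRB were the elongation genes with lower levels in rhino 2. IF5A1 encodes eIF5A, the hypusine-bearing factor that helps stalled ribosomes form peptide bonds, and had 171, 193 and 211 CPM in rhino 2, against 329, 286 and 332 CPM in rhino 1. Its log2 fold change was -0.62 (SE 0.19, adjusted p 0.226 by edgeR, 0.0155 by DESeq2), with no overlap. PAIRB (gene SERBP1), whose protein sits on idle ribosomes with eEF2, had 433, 378 and 293 CPM in rhino 2, against 583, 500 and 502 CPM in rhino 1, again with no overlap (log2 fold change -0.43, adjusted p 0.502 by edgeR). IF5A1 lies at 11188634 to 11194068 on scaffold 16.

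EF2, the translocase eEF2, had counts under its own name in rhino 1 replicate 1 alone, at 2934 CPM, and 0 in the other 5 libraries. A count of 0 allows at most 1.97 to 4.46 CPM there. The model on the opposite strand of EF2 is not unnamed: it carries the name JBP2, runs from 14125624 to 14135371 on scaffold 40, covers 100% of the EF2 exons and shares 14 of its 14 introns. JBP2 had 4442, 4523 and 4375 CPM in rhino 2, against 31.7, 3557 and 2854 CPM in rhino 1. The library that is low for JBP2 is the one that is high for EF2. The transcript that gives the model its name JBP2 is 201 bases long and took at most 1 count in each of the 5 libraries deposited per transcript. Summed over both strands, a joining chosen after the data were seen, the locus averaged 4447 ± 74.4 CPM in rhino 2, against 3125 ± 378 CPM in rhino 1 (SD, n = 3 each), with no overlap, a log2 fold change of 0.61 (SE 0.18) and an adjusted p of 0.187 by edgeR.

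EIF3D, the eIF3 subunit that can bind the cap, showed the same layout. It had 232 CPM in rhino 1 replicate 1 and 0 in the other 5 libraries, while the opposite-strand model, named PSB9 (scaffold 25, 34541671 to 34556890), had 192, 233 and 227 CPM in rhino 2, against 0, 198 and 208 CPM in rhino 1. PSB9 covers 99.3% of the EIF3D exons and shares 16 of its 17 introns. Summed over both strands, EIF3D averaged 218 ± 22.05 CPM in rhino 2, against 213 ± 17.3 CPM in rhino 1 (SD, n = 3 each), which overlapped (log2 fold change 0.13, adjusted p 0.933 by edgeR). With both loci summed in this way, the factor genes took 4.51% ± 0.143 of the counts in rhino 2 and 3.09% ± 0.0718 in rhino 1 (SD, n = 3 each). EF1A1 then stood at 5.09 ± 0.170 counts per count of EF2 in rhino 2 and at 3.85 ± 0.421 in rhino 1, without overlap.

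**Figure D3:**
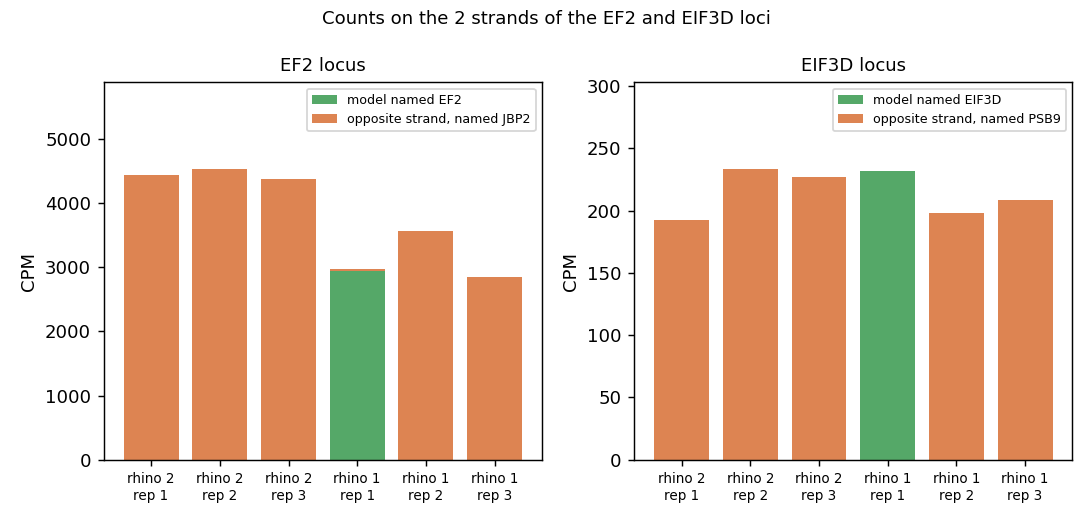
CPM of the EF2 locus (left) and the EIF3D locus (right) in each library, split into the model with the factor's name and the model on the opposite strand, named JBP2 or PSB9. Rhino 1 replicate 1 holds nearly all counts on the factor's model and the other 5 libraries hold all counts on the opposite one, and the summed heights are similar between libraries for EIF3D and higher in rhino 2 for EF2.

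eIF3 is the largest initiation factor. EIF3A, EIF3B, EIF3G and EIF3I belong to the part conserved with yeast. EIF3E, EIF3F, EIF3H, EIF3K, EIF3L and EIF3M are further subunits of the mammalian complex. Of 11 subunit genes tested, 7 had a log2 fold change above 0 and 4 below (median 0.10). The libraries of the animals did not overlap for 4 of them (36.4%), near the 39% of loci at 100 CPM or more. EIF3F, EIF3K and EIF3M were higher in rhino 2 and EIF3A was lower. EIF3F had 485, 378 and 442 CPM in rhino 2, against 210, 242 and 221 CPM in rhino 1. The lowest rhino 2 library was well above the highest rhino 1 library, and the log2 fold change of 1.06 (SE 0.17) had the lowest adjusted p of all factor genes, 0.055 by edgeR. It was 8.4e-10 by DESeq2, and over all alternatives the log2 fold change lay between 0.92 and 1.14, with adjusted p up to 0.283. EIF3F lies at 65624090 to 65631456 on scaffold 7.

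EIF3K had 350, 402 and 516 CPM in rhino 2, against 254, 222 and 330 CPM in rhino 1, with a log2 fold change of 0.75 (adjusted p 0.257 by edgeR). EIF3M had 209, 276 and 244 CPM in rhino 2, against 159, 195 and 186 CPM in rhino 1 (log2 fold change 0.54). The gaps between the animals were small for both. EIF3A, the scaffold of the complex, had 418, 351 and 337 CPM in rhino 2, against 495, 576 and 462 CPM in rhino 1, with a log2 fold change of -0.37 (adjusted p 0.477 by edgeR). EIF3I, a beta-propeller subunit, had the lowest log2 fold change of the complex, -0.50 (adjusted p 0.551), with 100, 149 and 141 CPM in rhino 2, against 147, 256 and 195 CPM in rhino 1. Its libraries overlapped in CPM, since rhino 1 replicate 1 lay below rhino 2 replicate 2, but per kb of exon they did not. The other 6 subunits overlapped in CPM as well, with log2 fold changes of -0.26 (EIF3L) to 0.42 (EIF3H).

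The following ratios between subunits, again chosen after the values were seen, did not overlap between the animals. For EIF3F over EIF3A this was fixed in advance, since EIF3F was higher and EIF3A lower in rhino 2 without overlap. There were 1.18 ± 0.120 counts of EIF3F per count of EIF3A in rhino 2 and 0.441 ± 0.0316 in rhino 1 (SD, n = 3 each), and 1.89 ± 0.181 counts of EIF3M per count of EIF3I in rhino 2 and 0.932 ± 0.160 in rhino 1. EIF3K over EIF3L was 2.57 ± 0.695 in rhino 2 and 1.27 ± 0.401 in rhino 1. Per kb of exon, EIF3K had the highest level of the 11 subunits in all 6 libraries, and EIF3J, a loosely bound subunit, the lowest in 5. In rhino 1 replicate 1 the lowest was EIF3B. There the counts of EIF3J were divided by its named model of 780 exonic bases, against 1750 for the opposite-strand model in the other libraries. The place of EIF3J and the spread in that library therefore depend on the model length used. The highest level per kb was 13.4, 18.0 and 18.2 times the lowest in rhino 2, against 8.06, 7.40 and 10.8 times in rhino 1.

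**Figure D4:**
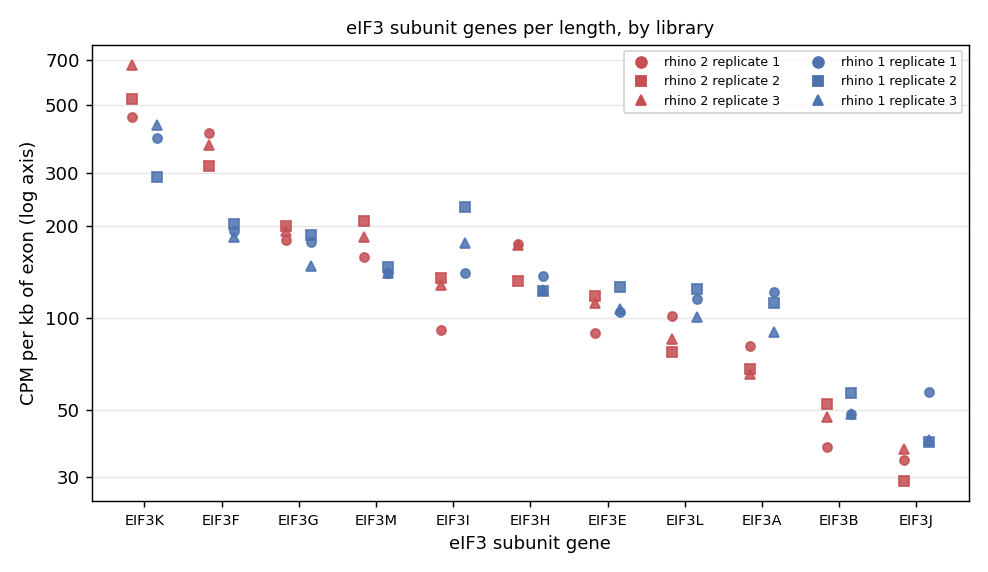
Level of 11 eIF3 subunit genes in CPM per kb of exon on a log axis, 1 point per library, with rhino 2 left of rhino 1 for each gene. EIF3K is highest in every library. On this scale EIF3F, EIF3K and EIF3M are higher in rhino 2 without overlap, and EIF3A, EIF3I and EIF3J are lower without overlap.

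Of the 6 genes for initiator tRNA delivery, scanning and subunit joining, 3 were above 0 and 3 below (median -0.06). The trimer eIF2 is encoded by IF2A, IF2B and IF2G (genes EIF2S1, EIF2S2 and EIF2S3), and the values of its subunits differed in direction between the animals. IF2G, the GTP-binding subunit, had 241, 236 and 229 CPM in rhino 2, against 155, 178 and 201 CPM in rhino 1, with a log2 fold change of 0.50 (adjusted p 0.295 by edgeR). IF2B had 111, 145 and 122 CPM in rhino 2, against 169, 199 and 198 CPM in rhino 1, with a log2 fold change of -0.48 (adjusted p 0.373 by edgeR). Neither overlapped, and IF2G over IF2B was 1.89 ± 0.273 in rhino 2 and 0.944 ± 0.0647 in rhino 1 (SD, n = 3 each). This ratio could not overlap, since its genes differed in opposite directions without overlap. IF2A, the subunit that stress kinases phosphorylate, had 40.0 to 62.5 CPM in rhino 2 and 62.1 to 86.0 CPM in rhino 1, with a small overlap and a log2 fold change of -0.44.

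IF1AX encodes eIF1A, which helps scanning, and had 368, 253 and 316 CPM in rhino 2, against 66.4, 290 and 317 CPM in rhino 1. A single library, rhino 1 replicate 1, was low, and the others overlapped. Its log2 fold change of 0.60 (SE 0.53) was 0.17 without that library. IF5, which sets off GTP hydrolysis on eIF2, had 354 to 541 CPM in rhino 2 and 393 to 489 CPM in rhino 1, which overlapped. IF2P (gene EIF5B), the subunit joining GTPase, had 142, 141 and 96.4 CPM in rhino 2, against 157, 156 and 189 CPM in rhino 1, without overlap (log2 fold change -0.31).

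Among the 12 genes for cap binding, poly(A) binding and unwinding, 7 were above 0 and 5 below (median 0.02). IF4G2 (DAP5), an eIF4G relative without the eIF4E site, had 1629, 897 and 1336 CPM in rhino 2, against 1439, 1346 and 1105 CPM in rhino 1. The animals overlapped, and its log2 fold change of 0.09 was -0.053 with library sizes alone. IF4G1, the main scaffold of eIF4F, had 336, 267 and 362 CPM in rhino 2, against 573, 431 and 467 CPM in rhino 1, without overlap (log2 fold change -0.52, adjusted p 0.397 by edgeR). IF4G3, a paralog of IF4G1, had 96.6 to 128 CPM in rhino 2 and 88.3 to 129 CPM in rhino 1. There were 3.97 ± 0.782 counts of IF4G2 per count of IF4G1 in rhino 2 and 2.67 ± 0.401 in rhino 1 (SD, n = 3 each), without overlap.

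IF4B, which stimulates the helicase, had 1168, 1026 and 962 CPM in rhino 2, against 918, 800 and 710 CPM in rhino 1, without overlap (log2 fold change 0.47, adjusted p 0.364 by edgeR). IF4H, its smaller relative, was lower in rhino 2, with 287, 344 and 310 CPM, against 441, 570 and 362 CPM in rhino 1 (log2 fold change -0.44). The libraries of IF4H did not overlap either, and these co-factors of the same helicase differed in opposite directions. IF4A2, a helicase paralog, had 671, 790 and 659 CPM in rhino 2, against 631, 489 and 586 CPM in rhino 1, a narrow gap (log2 fold change 0.41). IF4A1, the other paralog, had 598, 398 and 675 CPM in rhino 2, against 581, 788 and 603 CPM in rhino 1, and overlapped. IF4A2 over IF4A1 was 1.36 ± 0.546 in rhino 2 and 0.892 ± 0.242 in rhino 1 (SD, n = 3 each), with overlap. These paralogs are alike in sequence, and how the counting divided reads between them is not given in the sources used here. IF4A3, the exon junction helicase, had 76.7 to 163 CPM in rhino 2 and 128 to 145 CPM in rhino 1.

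PABP1, the cytoplasmic poly(A)-binding protein, overlapped between the animals, with 846, 742 and 898 CPM in rhino 2, against 844, 915 and 841 CPM in rhino 1. Its log2 fold change was 0.04 (SE 0.17), and -0.10 with library sizes alone. IF4E, the cap-binding protein itself, had 49.1 to 58.3 CPM in rhino 2 and 19.3 to 72.4 CPM in rhino 1. Of its repressors, 4EBP2 had 447 to 507 CPM in rhino 2 and 475 to 716 CPM in rhino 1, while 4EBP1 had 5.25, 0 and 10.2 CPM in rhino 2, against 6.70, 31.2 and 22.1 CPM in rhino 1. Per length, IF4E stood at 33.2 ± 2.84 CPM per kb in rhino 2 and 36.8 ± 22.1 in rhino 1, 4EBP2 at 70.2 ± 4.44 in rhino 2 and 81.95 ± 19.3 in rhino 1, and 4EBP1 at 6.70 ± 6.63 in rhino 2 and 29.4 ± 10.9 in rhino 1 (SD, n = 3 each). The 0 for 4EBP1 allows at most 4.26 CPM in that library. Its log2 fold change of -1.78 was the lowest of all factor genes, but its SE of 1.42 was larger than for any other, and its adjusted p was 0.763 by edgeR.

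TOP mRNAs were taken as a list from general knowledge: EF1A1, EF1B, EF1D, EF1G, EF2, TCTP, EIF3E, EIF3F, EIF3H, PABP1 and IF4B. The list was chosen with earlier results of these data known, so its values are described only. All 10 of those tested were above 0, with a median of 0.45, beside 52.8% of all loci above 0. But with library sizes alone EF1D, EIF3E and PABP1 were below 0 and 7 above. Without rhino 1 replicate 1, 8 were above 0. The libraries did not overlap for 5 (EF1A1, TCTP, EF1G, EIF3F and IF4B), in all of which rhino 2 was higher, beside 10.4% of all loci that were higher without overlap and 39% of loci at 100 CPM or more that did not overlap in either direction. Of the 26 genes not on the list, 12 were above and 14 below 0 (median -0.10). Of those that did not overlap, 4 were higher and 7 lower in rhino 2, beside 10.4% and 14% of all loci. The list holds the 3 genes with the highest CPM, and no test of it was made.

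The strand models of a gene differed in length. Over 36 genes the opposite-strand model was 0.522 to 10.3 times as long as the named one (median 1.08), and over 1.5 times as long for IF1AX, TCTP, EIF3J, IF4E and 4EBP1. For those 5, rhino 1 replicate 1 stood at a median of 0.643 times the mean of replicates 2 and 3 (range 0.219 to 0.869), and for the other 31 at 0.954 times (range 0.653 to 1.49). Across the 36 genes, which share these libraries, Pearson's r between the log2 ratios of length and level was -0.78. For IF1AX the named model has 435 exonic bases and the opposite one 4476. The next highest length ratio was 2.26, of TCTP, and r without IF1AX was not computed. The level ratio of 4EBP1, 0.251, rests on 21 and 32 counts in rhino 1 replicates 2 and 3.

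**Figure D5:**
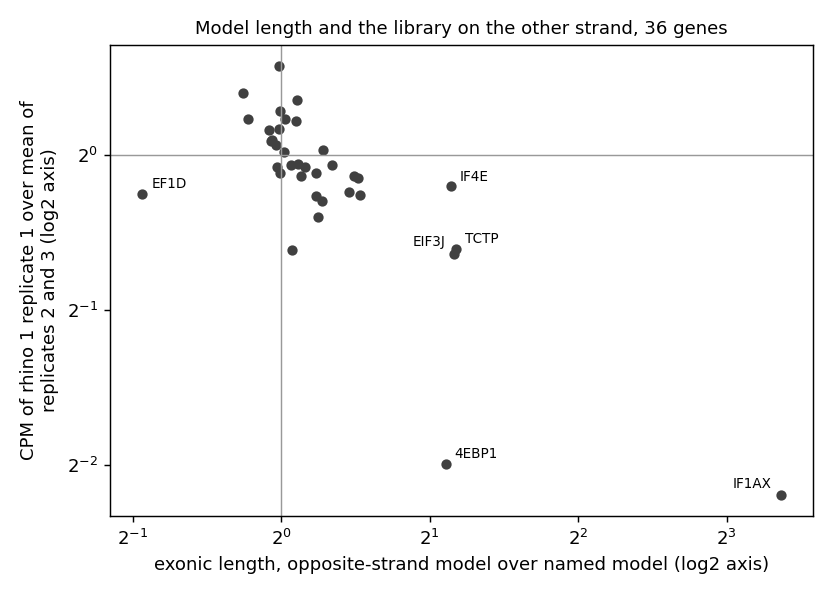
For 36 genes, the CPM of rhino 1 replicate 1 over the mean of rhino 1 replicates 2 and 3 against the exonic length of the opposite-strand model over that of the named model, both on log2 axes. IF1AX, with the longest opposite-strand model relative to the named one, is at the bottom right at 0.219 times.

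Further loci carried a factor name in 14 cases, of which 7 had no count. The 1 with a sizeable level was a single-exon IF5 locus of 1293 bases on scaffold 19 (19225644 to 19226936), with 160, 73.9 and 132 CPM in rhino 2, against 87.8, 69.9 and 93.8 CPM in rhino 1. It stood at 0.259 ± 0.0451 counts per count of IF5 in rhino 2 and at 0.197 ± 0.0492 in rhino 1, which overlapped. Reads of near-identical copies may be divided between the loci, so IF5 levels are uncertain to that extent. All other such loci held at most 44.5 CPM. A locus named EIFCL, the entry name of eIF3C-like, had 267, 273 and 247 CPM in rhino 2, against 343, 335 and 325 CPM in rhino 1. It was lower in rhino 2 without overlap, with a log2 fold change of -0.25 (adjusted p 0.668 by edgeR). EF1A2, the muscle and nerve form of eEF1A, was at 0 in all libraries, with no opposite-strand model.

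The wider set of translation genes held 46 names, of which 42 were present and 39 tested. None passed in edgeR, DESeq2 or limma-voom, against 0.551%, 8.7% and 8.93% of all loci. At an unadjusted p under 0.05 in edgeR there were 3, against 12.9% of all loci. Of the 39, 20 were above and 19 below 0 (median 0.15). Without overlap, 3 were higher and 2 lower in rhino 2, beside 10.4% and 14% of all loci. The largest differences were in low genes: EI2BB and EI2BD, subunits of the eIF2B exchange factor, each had a log2 fold change of -1.32, EI2BA of -1.28, and EIF1B, a scanning factor, of 1.29. EI2BD had 30.2, 24.2 and 0 CPM in rhino 2, against 43.9, 53.5 and 47.6 CPM in rhino 1, and EI2BB was at 0 in 3 libraries. Chosen after their values were seen, RPTOR, the mTOR partner that recruits the 4E-BPs, had 52.5, 75.3 and 64.9 CPM in rhino 2, against 41.2, 31.2 and 35.2 CPM in rhino 1 (log2 fold change 0.92), and MTOR had 87.3, 49.7 and 52.9 CPM in rhino 2, against 135, 150 and 86.9 CPM in rhino 1 (log2 fold change -0.86). RPTOR did not overlap between the animals and MTOR did.

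The factor genes were spread over many scaffolds. IF4A1 and IF5A1 lay 221 kb apart on scaffold 16, and scaffold 23 held PABP1, EIF3E, EIF3H and EF1D. IF1AX and IF2G lay 3.13 Mb apart on scaffold X. EIF3F, at a log2 fold change of 1.06, lay 2.42 Mb from IF4G2, at 0.09.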

How the data were processed

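RNA came from a PicoPure isolation and libraries from the NEBNext Ultra II RNA kit, per the labels' protocols. Trimmomatic, HISAT2 and StringTie are named in the submitters' processing notes. Versions, settings, build and strand counting were not given in the sources used here. Deposited were raw whole-number counts of reads, per assembled transcript in 5 files and per assembled gene in that of rhino 2 replicate 1, per the file headers and values. Transcript counts were summed to 40656 genes. An unnamed gene was joined to a named one on the opposite strand where exons overlapped by at least 50% of the shorter length (bedtools 2.31.1), leaving 25906 loci. CPM were computed from library totals. 1 count is worth 0.0753 to 1.49 CPM, and limits for a 0 are 3 counts which cover counting error alone. Both animals were set against each other as rhino 2 over rhino 1 with edgeR 4.0.16 in R 4.3.3 (TMM, filterByExpr, quasi-likelihood test, two-sided, Benjamini-Hochberg over 8532 loci, threshold 0.05), the script being tested on simulated data. No 2 libraries agreed within sampling noise. DESeq2 1.42.0 and limma-voom (limma 3.58.1), other scalings and filters, a replicate block and each library left out were the alternatives. Per-library values are given for the most abundant factors, the most different ones and those past a threshold in an alternative, and by choice after seeing values for some others. The members and lists were chosen with earlier results of these data known.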

Additional observations from a re-analysis of the deposited data

How the results depend on the processing

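The count of loci past the threshold, 47 in all, was 80 with library sizes alone, 353 with no filter on low counts, 626 with DESeq2, 762 with limma-voom, 142 with only loci modelled on both strands, and 0 to 49 with a library left out, 49 being without rhino 1 replicate 1, 4 without rhino 1 replicate 2, 0 without rhino 1 replicate 3 and 1 without each of the rhino 2 libraries. Of the calls, 44.7% were higher in rhino 2, against 33.8% with library sizes alone, 81.1% with limma-voom, 61.2% without rhino 1 replicate 1 and 54.2% with only loci modelled on both strands, so the balance of directions depends on the setting. With the genes as deposited it was 0, with 239 at an unadjusted p under 0.05. With the replicate block it was 0 as well, with 893 at an unadjusted p under 0.05. Correlations of deviations between libraries of the same replicate number were 0.21, 0.13 and 0.01, against -0.18 to 0.02 for different numbers. Whether the replicate numbers pair the libraries is not settled by these values. The block called 0 factor genes. Factor genes past the threshold, 0 with edgeR and none with any library left out, were 3 with no filter (EIF3F, and EF2 and EIF3D, whose counts lie in 1 library), 5 with DESeq2, 3 with limma-voom and 2 with only loci modelled on both strands. Their median log2 fold change of 0.07 was -0.064 with library sizes alone and 0.041 to 0.14 with a library left out. Over all 36 factor genes, 6 changed sign with library sizes alone (EF1D, EIF3E, EIF3J, IF4A3, IF4G2 and PABP1) and 4 without rhino 1 replicate 1 (EF1D, EIF3E, EIF3J and 4EBP2), each with a log2 fold change between -0.14 and 0.10 in edgeR's fit of all libraries. Among the 16 named genes, the sign turned for IF4G2, at -0.053 with library sizes alone and -0.13 to 0.29 with a library left out (below 0 without rhino 2 replicate 1, -0.13, or rhino 1 replicate 3, -0.015), and for PABP1, at -0.10 with library sizes alone and -0.020 to 0.10 with a library left out (below 0 without rhino 2 replicate 3). The factor share was 4.43% in rhino 2 of the counts at loci modelled on both strands, and with EF2 and EIF3D joined to the named opposite-strand model it was 4.51% in rhino 2 and 3.09% in rhino 1. Of 223 values of 16 named genes under alternatives, 207 kept direction and side, 11 newly passed and 5 changed sign. The cause of these shifts was not tested.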
